A study of Homo sapiens with 14 samples.

Results

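The 10 genes described here encode the cyclins, cyclin-dependent kinases (CDKs) and CDK inhibitors that act in the G1 phase of the cell cycle, and they were chosen by gene name from the 36555 genes of the deposited count table. They are the CDK inhibitors CDKN2B, CDKN1A and CDKN1B, the D-type cyclins CCND1, CCND2 and CCND3, the E-type cyclins CCNE1 and CCNE2, and the kinases CDK4 and CDK6. All 10 passed the filter on low counts and were among the 22179 genes tested. RNA was sequenced from HT-29, a human colorectal carcinoma cell line labelled as wild type. Per the labels, 2 libraries came from cells given 100 ug/ml TNF with 20 uM liproxstatin-1, 3 from TNF with 20 uM ferrostatin-1, 2 from TNF alone, 2 from 20 uM liproxstatin-1 alone, 2 from 20 uM ferrostatin-1 alone and 3 from control cells in ordinary medium with 0.1% DMSO. The treated cells were exposed for 72 h, and TNF was given to cause apoptosis. No time is recorded for the control and no DMSO level for the treated groups, so vehicle and time may differ between them. Plain medium below means medium without either compound. Ferrostatin-1 and liproxstatin-1 are lipid radical scavengers used to block ferroptosis, and the study asked why their effects differ in cells treated with TNF. The design text calls the replicates technical, so p-values measure only the spread between these libraries.

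D-type cyclins bind CDK4 or CDK6, and E-type cyclins bind CDK2. Both kinds of complex phosphorylate the retinoblastoma protein, which then releases E2F transcription factors, and E2F factors in turn drive genes of DNA synthesis, CCNE1 and CCNE2 among them. CDKN2B (p15) binds CDK4 and CDK6 and keeps D-type cyclins off them, while CDKN1A (p21), a target of p53, and CDKN1B (p27) bind complexes of cyclins with CDKs. In colorectal carcinoma the pathway is usually studied downstream of Wnt, MYC and TGF-beta signalling. In bulk RNA, fewer cells in a phase of the cycle and less RNA per cell cannot be told apart.

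Libraries held 59913850 to 75838597 counts. The 8 genes listed as a check of TNF response were all higher with TNF, and their summed level was 1430 to 1748 normalized CPM (counts scaled by library size) in the 7 libraries with TNF against 296 to 375 CPM in the 7 without. Of the 9 epithelial markers, KRT8 lay at 4788 CPM or more in every library, while CDX2 (4.44 to 12.2 CPM) and CEACAM5 (2.42 to 9.58 CPM) were the lowest. Of the 3 leukocyte markers, PTPRC stayed at 0.0551 CPM or less and CD68 lay at 7.10 to 21.1 CPM. The 5 fibroblast markers summed to 23.97 and 43.2 CPM in TNF alone and to 2.29 to 15.1 CPM in the other 12 libraries, with PDGFRA at 0.343 CPM or less and COL1A1 at up to 23.3 CPM. COL1A1 was called higher in TNF against control (log2 change 2.01 ± 0.57, adjusted p = 0.0362), and the part of these markers in the results of TNF alone was not tested. The 3 endothelial markers summed to 0.846 to 44.4 CPM, with VWF at up to 29.1 CPM. TNF library 1 differed from TNF library 3 by a chi-square per degree of freedom of 203. Pairs inside the other groups gave 14.9 to 74.3, and the highest of these was between control libraries 2 and 3, with 45.8 between control libraries 1 and 2 and 19.8 between 1 and 3. Control library 2 thus lay farthest from the others of its group, while 2 libraries alone do not show which of TNF 1 and TNF 3 stands apart. Calls that change, and values named here that move most, when one of these libraries is left out are given beside the results.

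Levels between genes were compared per length of transcript, in the deposited FPKM values (fragments scaled by gene length and library size) of 8 libraries, those of control and of TNF with either compound. CDK4 had a median level of 63.6 FPKM (53.9 to 73.2) and CCND1 59.6 FPKM (50.3 to 62.8), and these were the highest of the 10 genes. CDKN1B had a median of 21.6 FPKM, CDKN1A 17.99 and CCND3 10.6. CDK6, the other kinase partner of the D-type cyclins, had a median of 8.49 FPKM, CCNE1 7.75 and CDKN2B 6.11. CCNE2 stood at 2.35 FPKM and CCND2 at 0.0501 FPKM. Among the D-type cyclins the level of CCND1 was thus above that of CCND3 in each of these libraries, and CCND2 was close to the limit of detection.

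The 250 bases before a start annotated in RefSeq are shown for the inhibitor and the cyclin whose levels differed most clearly with TNF, CDKN2B and CCNE1, and for a second inhibitor and a kinase that were not called over the 3 backgrounds, CDKN1A and CDK4. They were taken from RefSeq (GRCh38.p14), where 7 of the 10 genes had an entry. Capitals mark matches, on either strand, to the GC box (GGGCGG) and the E-box (CACGTG). They lie at chr9:22009306-22009555 on the minus strand for CDKN2B, chr19:29811741-29811990 on the plus strand for CCNE1, chr6:36678464-36678713 on the plus strand for CDKN1A and chr12:57752311-57752560 on the minus strand for CDK4. For CDKN1A and CDK4 this window lies inside the span that the deposited table gives for the gene.
CDKN2B: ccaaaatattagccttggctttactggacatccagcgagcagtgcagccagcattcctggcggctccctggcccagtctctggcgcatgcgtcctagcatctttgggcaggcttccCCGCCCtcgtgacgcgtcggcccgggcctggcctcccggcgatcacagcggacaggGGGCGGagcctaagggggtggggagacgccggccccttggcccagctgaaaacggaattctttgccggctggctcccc
CCNE1: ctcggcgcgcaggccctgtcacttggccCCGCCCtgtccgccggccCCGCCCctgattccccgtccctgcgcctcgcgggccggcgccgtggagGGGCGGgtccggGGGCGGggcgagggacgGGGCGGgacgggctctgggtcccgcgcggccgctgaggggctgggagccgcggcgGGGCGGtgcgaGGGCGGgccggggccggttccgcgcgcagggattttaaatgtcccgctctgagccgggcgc
CDKN1A: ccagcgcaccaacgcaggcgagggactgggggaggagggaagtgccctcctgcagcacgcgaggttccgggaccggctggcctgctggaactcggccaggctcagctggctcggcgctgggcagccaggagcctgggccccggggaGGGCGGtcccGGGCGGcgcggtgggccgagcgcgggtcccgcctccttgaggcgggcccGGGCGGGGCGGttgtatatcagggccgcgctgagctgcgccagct
CDK4: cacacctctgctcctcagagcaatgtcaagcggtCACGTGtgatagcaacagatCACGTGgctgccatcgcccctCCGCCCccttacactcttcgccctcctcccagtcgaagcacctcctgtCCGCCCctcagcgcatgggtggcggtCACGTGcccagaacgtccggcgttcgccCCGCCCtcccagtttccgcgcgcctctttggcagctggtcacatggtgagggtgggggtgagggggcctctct
CDKN2B held 2 GC boxes, CCNE1 7, CDKN1A 4 (the last 2 overlapping by 1 base) and CDK4 3, and a GC box was found in 42.6% of the 35116 promoter windows of this length. CDK4 also held 3 E-boxes, a motif found in 6.34% of windows. None of these 4 windows matched the E2F core TTTNNCGC (in 5.92% of all windows), the TATA box TATAAA (10.7%), the kappaB consensus (9.96%) or the p53 site consensus (5.57%). A match is a description of the letters and no evidence of binding.

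**Figure D1:**
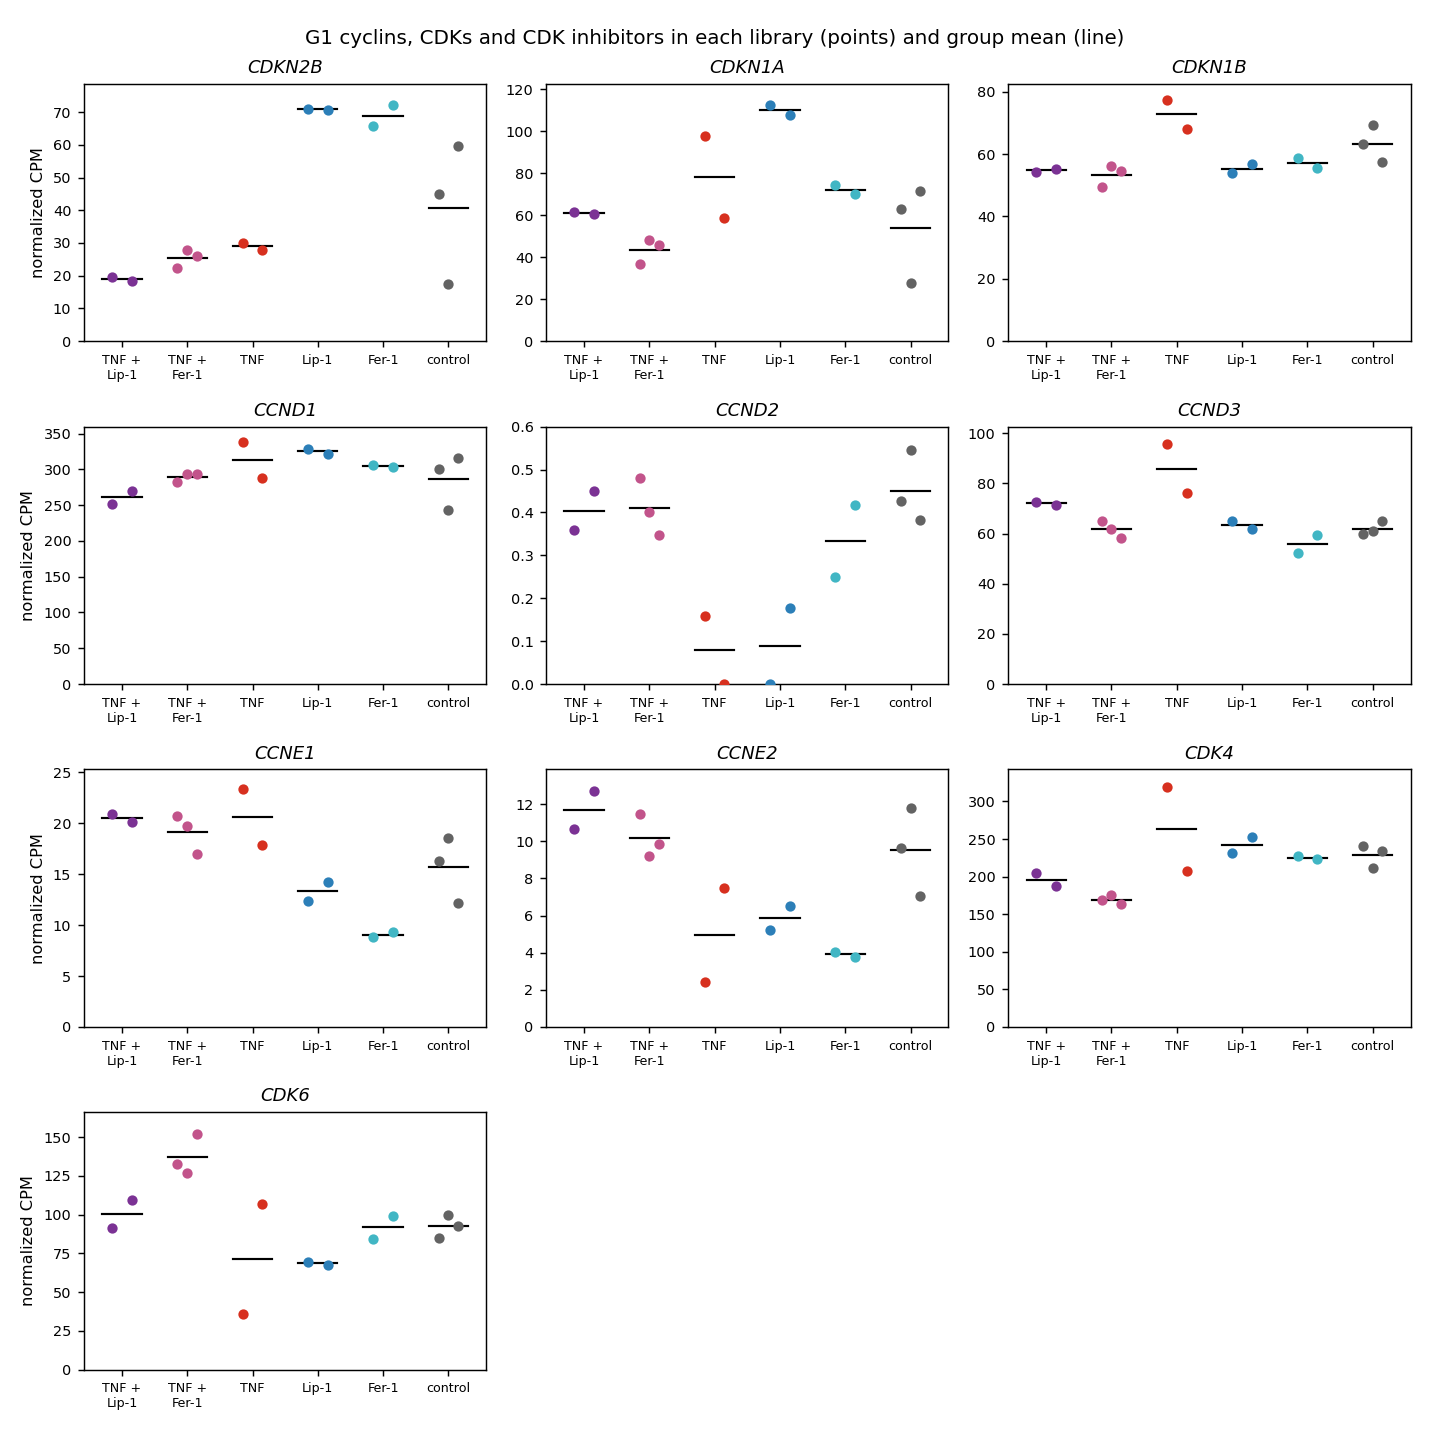
Normalized CPM (vertical axes, linear from 0) of the 10 genes in each of the 14 libraries (points) by group, with the group mean as a line; Lip-1 is liproxstatin-1 and Fer-1 ferrostatin-1. CDKN2B lay between 18.4 and 30.1 CPM in the 7 libraries with TNF and between 45.0 and 72.2 CPM in 6 of the 7 without, with control library 2 at 17.3 CPM.

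TNF was examined first over all libraries, as the mean of its effect in plain medium, in ferrostatin-1 and in liproxstatin-1. CCNE1 and CCND3 were higher with TNF and CDKN2B was lower, by edgeR's quasi-likelihood test at an adjusted p below 0.05. These 3 of 10 genes compare with 33.9% of all genes tested, of which 17.6% were higher and 16.2% lower, so the count is close to the background. The median log2 change was 0.00 over the 10 genes and 0.005 over all genes tested. What follows takes the genes by role.

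CDKN2B (ENSG00000147883), the p15 inhibitor of CDK4 and CDK6, lies at chr9:22002903-22009305 on the minus strand in the deposited table. It had 19.5 and 18.4 CPM in TNF with liproxstatin-1, against 70.9 and 70.7 CPM in liproxstatin-1 alone. In TNF with ferrostatin-1 it had 22.3, 27.8 and 25.9 CPM, against 65.6 and 72.2 CPM in ferrostatin-1 alone. Under both compounds, then, every library with TNF lay well below every library without it. TNF alone gave 30.1 and 28.0 CPM, against 45.0, 17.3 and 59.6 CPM in control libraries 1, 2 and 3. Here the groups overlapped, because control library 2 lay below all libraries with TNF. The log2 change with TNF was -1.28 ± 0.21 (SE) over the 3 backgrounds (adjusted p = 0.000602), -1.90 ± 0.39 within liproxstatin-1 (adjusted p = 0.00742) and -1.44 ± 0.34 within ferrostatin-1 (adjusted p = 0.012). Within liproxstatin-1 it was the 1 of 10 genes called, where 14.6% of all genes were called and 7.03% were called lower. Against control its change was -0.48 ± 0.35 (95% interval -1.25 to 0.28; adjusted p = 0.388). That last change was -0.86 ± 0.15 and called without control library 2 (adjusted p = 0.00336), among 15.5% of all genes. CDKN2B thus ran from high to low in the order liproxstatin-1, ferrostatin-1, control, TNF alone, then TNF with ferrostatin-1, then TNF with liproxstatin-1, with overlapping ranges between liproxstatin-1 and ferrostatin-1 and between control and TNF.

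An antisense gene, CDKN2B-AS1, overlaps CDKN2B. Its level was 4.95 to 11.7 CPM in libraries with TNF and 5.12 to 7.83 CPM in those without, and it rose by 0.55 ± 0.10 on the log2 scale over the 3 backgrounds (adjusted p = 0.00161), opposite in sign to CDKN2B. The libraries were made strand-specific, but the sources used here do not state the strand setting of the counting, and reads of the pair may not be fully apart. CDKN2A, a neighbouring gene of the same family that encodes p16 and ARF, had a log2 change of 0.08 ± 0.07 (adjusted p = 0.456).

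CDKN1A (ENSG00000124762), at chr6:36676460-36687337 on the plus strand, encodes p21. It had 61.6 and 60.4 CPM in TNF with liproxstatin-1, against 113 and 108 CPM in liproxstatin-1 alone. In TNF with ferrostatin-1 it had 37.0, 48.1 and 45.9 CPM, against 74.3 and 69.9 CPM in ferrostatin-1 alone. Within each compound no library with TNF reached one without. TNF alone gave 97.7 and 58.7 CPM and the controls 62.9, 27.7 and 71.7 CPM, groups that overlapped. The log2 changes were -0.85 ± 0.35 within liproxstatin-1 (adjusted p = 0.13), -0.72 ± 0.31 within ferrostatin-1 (adjusted p = 0.139) and 0.53 ± 0.31 against control (adjusted p = 0.281), and none was called. The change against control was 0.12 without TNF library 1, 0.85 without TNF library 3, 0.20 without control library 2 and -0.21 without control library 2 and TNF library 1. TNF library 1 held the highest CDKN1A level of the libraries with TNF, and control library 2 the lowest of those without. Over the 3 backgrounds CDKN1A was called lower without control library 2 (-0.46 ± 0.11, adjusted p = 0.00906), among 35.3% of all genes. It was also called lower when either TNF library was left out together with control library 2, by choices made after seeing the data (-0.59 ± 0.07 without TNF library 1, adjusted p = 2.13e-05, and -0.35 ± 0.07 without TNF library 3, adjusted p = 0.000881).

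CDKN1B (ENSG00000111276), which encodes p27 and is regulated largely at the level of protein stability, varied least of the 3 inhibitors. It had 54.3 and 55.3 CPM in TNF with liproxstatin-1, 49.4, 56.2 and 54.4 CPM in TNF with ferrostatin-1, and 77.2 and 68.2 CPM in TNF alone. Without TNF it had 54.0 and 56.6 CPM in liproxstatin-1, 58.7 and 55.5 CPM in ferrostatin-1, and 63.1, 69.2 and 57.6 CPM in control. Its log2 change with TNF over the 3 backgrounds was 0.03 ± 0.06 (95% interval -0.11 to 0.16; adjusted p = 0.766).

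CCNE1 (ENSG00000105173), at chr19:29811991-29824312 on the plus strand, encodes cyclin E1, the activating partner of CDK2 and itself an E2F target. It had 20.9 and 20.1 CPM in TNF with liproxstatin-1, against 12.4 and 14.3 CPM in liproxstatin-1 alone. In TNF with ferrostatin-1 it had 20.8, 19.7 and 17.0 CPM, against 8.80 and 9.28 CPM in ferrostatin-1 alone. TNF alone gave 23.4 and 17.9 CPM, against 16.3, 18.6 and 12.2 CPM in control. With TNF the 3 groups lay close together, whereas without it they ran from control down to ferrostatin-1, where both libraries lay below every other library of the series. CCNE1 rose with TNF by 0.70 ± 0.11 on the log2 scale over the 3 backgrounds (adjusted p = 0.000377) and by 1.08 ± 0.19 within ferrostatin-1 (adjusted p = 0.00189). Within liproxstatin-1 the change was 0.62 ± 0.20 (adjusted p = 0.0556), and against control it was 0.39 ± 0.18 (adjusted p = 0.157). That the effect of TNF differed between ferrostatin-1 and plain medium was not called (0.69 ± 0.26, adjusted p = 0.191). For liproxstatin-1 the same test called none of the 10 genes and 0.0% of all genes. At an unadjusted p below 0.05, 4 of the 10 passed the test with ferrostatin-1 (19.1% of all genes) and 6 that with liproxstatin-1 (19.5%). DESeq2 called 1 and 2 genes in these tests, beside 9.23% and 9.31% of the 14428 and 13999 genes it gave an adjusted p. Limma voom called 0 in both (0.0541% and 0.933% of all genes).

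CCNE2 (ENSG00000175305), at chr8:94879770-94896678 on the minus strand, encodes cyclin E2. It had 10.7 and 12.7 CPM in TNF with liproxstatin-1, against 5.22 and 6.53 CPM in liproxstatin-1 alone. In TNF with ferrostatin-1 it had 11.5, 9.20 and 9.84 CPM, against 4.03 and 3.78 CPM in ferrostatin-1 alone. TNF alone gave 2.40 and 7.47 CPM, against 9.66, 11.8 and 7.07 CPM in control. Under either compound the libraries with TNF were higher, and in plain medium TNF library 1 was the lowest library of all. CCNE2 rose with TNF within ferrostatin-1 by 1.38 ± 0.38 on the log2 scale (adjusted p = 0.0254), in a comparison where 18.1% of all genes were called (8.76% higher and 9.36% lower); CCNE1, CCNE2 and CDKN2B were the 3 of 10 called. The other changes with TNF were 0.99 ± 0.40 within liproxstatin-1 (adjusted p = 0.125), -0.95 ± 0.37 against control (adjusted p = 0.109) and 0.48 ± 0.22 over the 3 backgrounds (adjusted p = 0.114). The last was called without TNF library 1, at 0.67 ± 0.13 (adjusted p = 0.00142; 36.4% of all genes), but was 0.13 ± 0.13 without TNF library 3 (adjusted p = 0.505). Against control CCNE2 was -0.35 without TNF library 1 and -1.99 without TNF library 3, where it was called (adjusted p = 0.000198). The difference in the effect of TNF between ferrostatin-1 and plain medium was 2.33 ± 0.53 (adjusted p = 0.0947), against 1 gene (0.00451%) called in this test. It was called without TNF library 1, at 1.73 ± 0.34 (adjusted p = 0.0443; 0.918% of all genes), and without TNF library 3, at 3.37 ± 0.37 (adjusted p = 2.2e-05; 26.0% of all genes). The genes INTS8 and NDUFAF6 overlap CCNE2 on the other strand, with log2 changes of -0.02 and 0.08 over the 3 backgrounds.

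CCND3 (ENSG00000112576), at chr6:41934934-42050357 on the minus strand, encodes cyclin D3. It had 72.6 and 71.5 CPM in TNF with liproxstatin-1, against 64.8 and 61.9 CPM in liproxstatin-1 alone. In TNF with ferrostatin-1 it had 65.2, 61.8 and 58.2 CPM, against 52.4 and 59.3 CPM in ferrostatin-1 alone. TNF alone gave 95.6 and 76.2 CPM, against 59.6, 61.0 and 65.0 CPM in control. Both TNF libraries lay above all other libraries. CCND3 rose by 0.47 ± 0.11 on the log2 scale in TNF against control (adjusted p = 0.0136) and was the 1 of 10 genes called there, where 14.7% of all genes were called (8.24% higher). Over the 3 backgrounds it rose by 0.27 ± 0.06 (adjusted p = 0.00736). Without TNF library 1 the change against control was 0.30 (adjusted p = 0.0672) and no longer called, and over the 3 backgrounds it was 0.21 ± 0.05 and still called (adjusted p = 0.00452).

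CCND1 (ENSG00000110092), which encodes cyclin D1 and is known as a Wnt target in colorectal cells, had 252 and 269 CPM in TNF with liproxstatin-1, 283, 293 and 293 CPM in TNF with ferrostatin-1, and 338 and 288 CPM in TNF alone. Without TNF it had 329 and 322 CPM in liproxstatin-1, 306 and 304 CPM in ferrostatin-1, and 299.8, 243 and 316 CPM in control. The whole span was thus narrow, and the log2 change over the 3 backgrounds was -0.09 ± 0.06 (95% interval -0.23 to 0.05; adjusted p = 0.327). CCND2 had 0 to 41 counts in a library, and 0 counts in liproxstatin-1 library 1 and TNF library 3. A count of 0 allows up to 0.0525 and 0.0396 CPM in these libraries, taking 3 counts as the limit and covering counting error only. No fold is given for CCND2.

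CDK4 (ENSG00000135446), at chr12:57747727-57756013 on the minus strand, and CDK6 (ENSG00000105810), at chr7:92604921-92836573 on the minus strand, encode the kinase partners of the D-type cyclins. CDK4 had 204 and 188 CPM in TNF with liproxstatin-1, 168, 176 and 164 CPM in TNF with ferrostatin-1, and 319 and 208 CPM in TNF alone. Without TNF it had 232 and 253 CPM in liproxstatin-1, 227 and 223 CPM in ferrostatin-1, and 241, 211 and 234 CPM in control. TNF library 1 was thus the highest library, while the other 6 libraries with TNF lay below all 7 without. CDK6 had 91.2 and 109 CPM in TNF with liproxstatin-1, 133, 127 and 152 CPM in TNF with ferrostatin-1, and 36.2 and 107 CPM in TNF alone. Without TNF it had 69.6 and 67.6 CPM in liproxstatin-1, 84.4 and 99.4 CPM in ferrostatin-1, and 84.8, 99.9 and 92.8 CPM in control. For this kinase TNF library 1 was the lowest library and TNF with ferrostatin-1 the highest group. Neither kinase was called over the 3 backgrounds, with log2 changes of -0.17 ± 0.08 for CDK4 (adjusted p = 0.146) and 0.25 ± 0.18 for CDK6 (adjusted p = 0.331). Without TNF library 1 both were called in opposite directions, CDK4 at -0.28 ± 0.05 (adjusted p = 0.000585) and CDK6 at 0.45 ± 0.07 (adjusted p = 0.000307). Without TNF library 3 neither was called, with -0.08 for CDK4 (adjusted p = 0.22) and -0.08 for CDK6 (adjusted p = 0.444), and 40.8% of all genes were called.

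**Figure D2:**
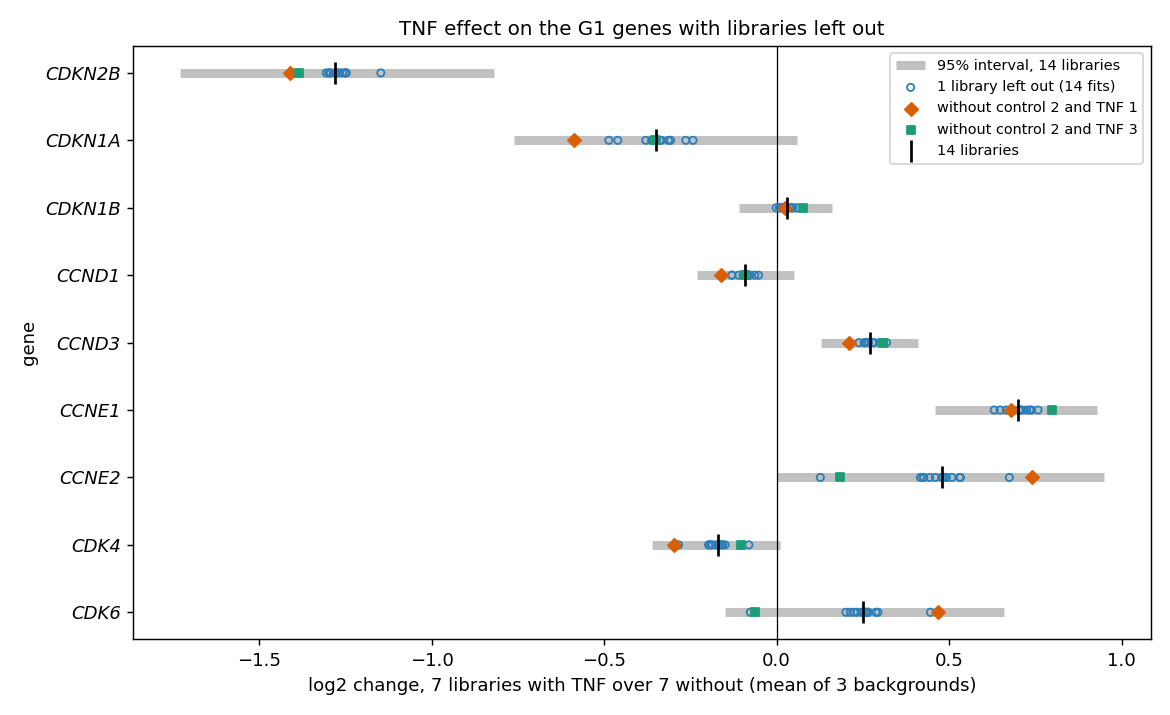
Log2 change with TNF over the 3 backgrounds (horizontal axis) for 9 of the 10 genes, CCND2 left out for its low counts. Black ticks and grey bars are the values and 95% intervals from 14 libraries, circles the 14 fits with 1 library left out, and diamonds the fit without control library 2 and TNF library 1 and squares that without control library 2 and TNF library 3; CDKN2B stays below 0 and CCND3 and CCNE1 stay above 0 in all of these fits.

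Leaving out control library 2 and TNF library 1 together, a setting chosen after seeing the data that leaves TNF with a single library assumed to vary like the other groups, raised the count over the 3 backgrounds to 8 of 10 genes, while the share of all genes called was 40.1%. CCND3, CCNE1, CCNE2 and CDK6 were then higher (20.7% of all genes) and CCND1, CDK4, CDKN1A and CDKN2B lower (19.4%). Leaving out control library 2 and TNF library 3 instead gave 5 of 10 genes, against 43.9% of all genes: CCND3 and CCNE1 were higher (19.4%) and CCND1, CDKN1A and CDKN2B lower (24.5%). Over all 14 libraries, the range with TNF overlapped the range without it for each of the 10 genes. In the 12 libraries other than control library 2 and TNF library 1, the ranges no longer overlapped for CDKN1A, CDKN2B, CCND1, CCNE1 and CDK4. With TNF library 3 left out in place of TNF library 1, CDKN2B and CCNE1 stayed apart. The ranges then overlapped for CDKN1A, CCND1 and CDK4, which had 97.7, 338 and 319 CPM in TNF library 1. The libraries left out held extreme values of some of these genes, such as 27.7 CPM for CDKN1A in control library 2. The share of all genes whose ranges lay apart was not counted, so the separation cannot be read as particular to these genes.

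The compounds were next compared with control in the absence of TNF. None of the 10 genes was called in ferrostatin-1 against control, where 0.564% of all genes were called, nor in liproxstatin-1 against control (0.0586%). At an unadjusted p below 0.05, 3 genes passed in ferrostatin-1 against control (12.3% of all genes) and 2 in liproxstatin-1 against control (12.0%). DESeq2 called 2 genes in ferrostatin-1 and 1 in liproxstatin-1, beside 4.81% and 2.45% of the 16574 and 20871 genes it gave an adjusted p. Limma voom called 2 (7.23% of all genes) and 3 (6.6%). The largest changes in ferrostatin-1 were in the E-type cyclins, at -1.29 ± 0.38 for CCNE2 (adjusted p = 0.167) and -0.80 ± 0.18 for CCNE1 (adjusted p = 0.083) on the log2 scale. The TNF libraries belong to neither group but enter the common estimate of the spread. Without TNF library 1 the changes were the same to 2 decimals and both were called (adjusted p = 0.00932 for CCNE2 and 0.0248 for CCNE1), among 3.39% of all genes. Both were also called without TNF library 3, among 3.36% of all genes. In liproxstatin-1 the largest change was in CDKN1A, at 1.03 ± 0.31 (adjusted p = 0.222), with both libraries above all 3 controls. Without control library 2 and TNF library 1 it was 0.71 ± 0.11 and called (adjusted p = 0.0117), among 1.18% of all genes, and without control library 2 and TNF library 3 it was likewise called (adjusted p = 0.0129; 1.12%). CDKN2B was 0.80 ± 0.34 in liproxstatin-1 (adjusted p = 0.379) and 0.76 ± 0.34 in ferrostatin-1 (adjusted p = 0.388), again with all compound libraries above the controls. These changes were 0.43 and 0.39 without control library 2 and 1.18 and 1.15 without control library 3, and none was called.

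In the presence of TNF, CDK4, CCND3 and CDKN1B were lower in TNF with ferrostatin-1 than in TNF alone. CDK4 fell by 0.64 on the log2 scale (SE 0.14, adjusted p = 0.0317), CCND3 by 0.48 (SE 0.11, adjusted p = 0.0339) and CDKN1B by 0.45 (SE 0.10, adjusted p = 0.0357). These 3 of 10 genes compare with 5.52% of all genes called, and 3.75% called lower. The values differ with the TNF library used. Without TNF library 1 the changes were -0.30 for CDK4 (adjusted p = 0.134), -0.31 for CCND3 (adjusted p = 0.131) and -0.36 for CDKN1B (adjusted p = 0.116), and none was called (2.49% of all genes). Without TNF library 3 they were -0.91, -0.63 and -0.53, and 6 of the 10 genes were called, among 31.2% of all genes. In TNF with liproxstatin-1 against TNF, where 0.343% of all genes were called, none of the 10 passed, with CDKN1B at -0.41 ± 0.11 (adjusted p = 0.0926) and CCNE2 at 1.24 ± 0.40 (adjusted p = 0.114). CCNE2 was 0.64 without TNF library 1 and 2.29 without TNF library 3, where it was 1 of 6 genes called (28.7% of all genes). By unadjusted p below 0.05, 4 of the 10 passed in this comparison (23.1% of all genes), while limma voom called 0 (0.555%). DESeq2 called 2, beside 18.1% of the 13570 genes it gave an adjusted p. The comparisons with TNF share the TNF libraries, so their changes are not independent.

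**Figure D3:**
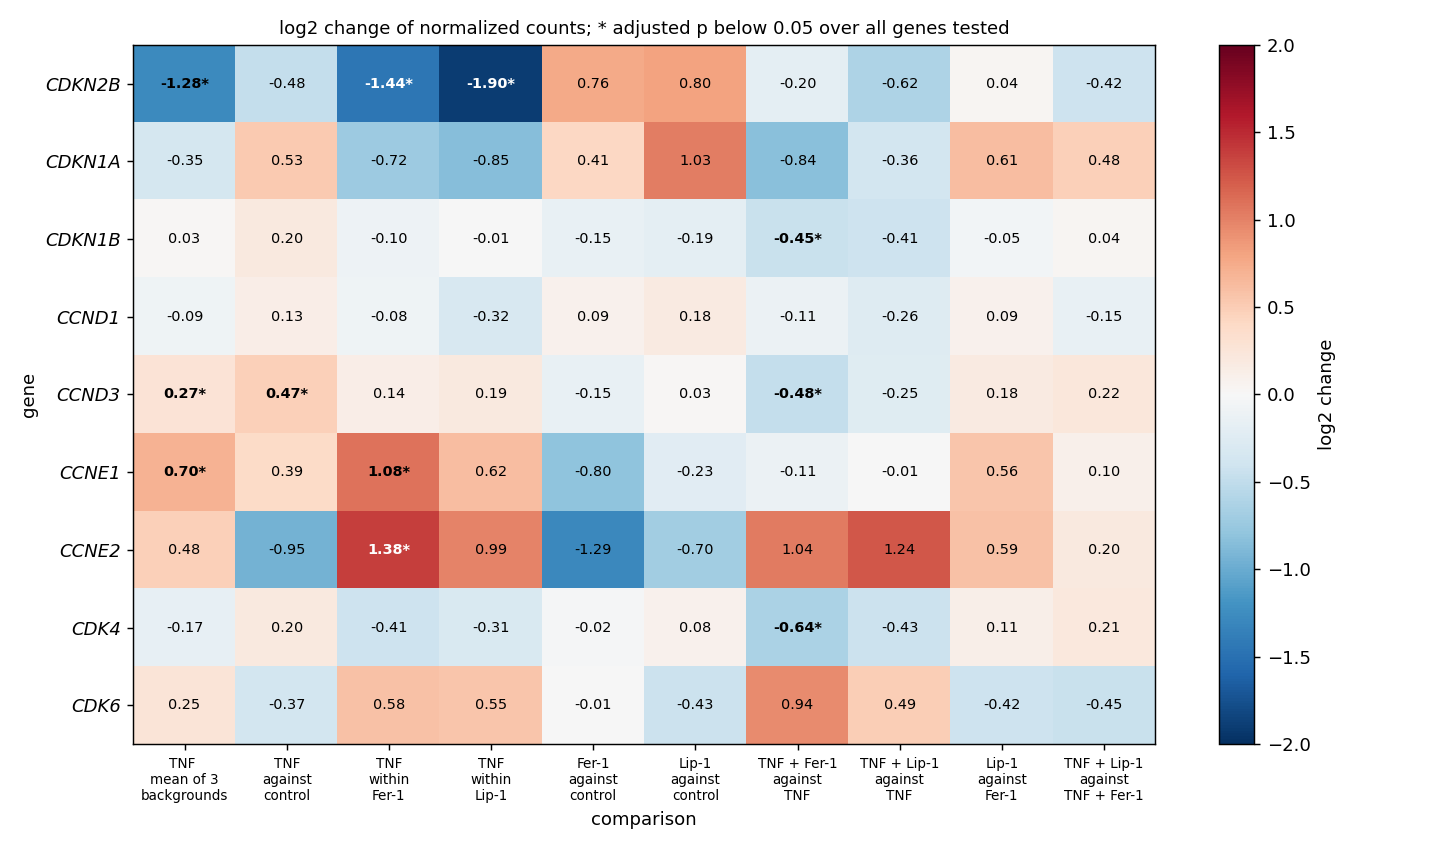
Log2 changes (colour and printed value) of 9 genes (rows, CCND2 left out for its low counts) in 10 comparisons (columns), with an asterisk at an adjusted p below 0.05 by edgeR's quasi-likelihood test; Lip-1 is liproxstatin-1 and Fer-1 ferrostatin-1. The marked values are in the 4 TNF columns at the left and in TNF with ferrostatin-1 against TNF.

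Liproxstatin-1 was then set against ferrostatin-1 at the same dose and time. Liproxstatin-1 is a spiroquinoxaline amine and ferrostatin-1 an aminobenzoate ester. None of the 10 genes differed by the test, either without TNF (0.104% of all genes called) or with TNF (0.766%). With p-values adjusted over all genes in each of these 2 comparisons, the smallest adjusted p among the 10 was 0.552 without TNF, for CCNE1, and 0.62 with TNF, for CCND3. At an unadjusted p below 0.05, 1 gene passed without TNF (6.51% of all genes) and 0 with TNF (8.6%). DESeq2 called 0 in both, beside 1.08% and 2.18% of the 20441 and 21301 genes it gave an adjusted p. Limma voom also called 0 in both (1.36% and 3.67% of all genes). CCNE1 had a log2 difference of 0.56 ± 0.20 (95% interval 0.13 to 0.99) without TNF, with 12.4 and 14.3 CPM in liproxstatin-1 against 8.80 and 9.28 CPM in ferrostatin-1. With TNF its difference was 0.10 (95% interval -0.29 to 0.49). CDKN1A was 0.61 ± 0.35 without TNF (95% interval -0.14 to 1.37) and 0.48 ± 0.31 with TNF (95% interval -0.20 to 1.17), and its liproxstatin-1 libraries lay above the ferrostatin-1 libraries in both. CDK6 was -0.42 ± 0.34 without TNF (95% interval -1.16 to 0.32) and -0.45 ± 0.31 with TNF (95% interval -1.13 to 0.23). The intervals include both 0 and changes of more than 1 log2 unit for CDKN1A and CDK6, so no likeness of the compounds can be read from them. Without control library 2 and TNF library 1, CDKN1A was called higher in liproxstatin-1, by 0.61 ± 0.11 without TNF (adjusted p = 0.0193; 1.46% of all genes) and by 0.47 ± 0.10 with TNF (adjusted p = 0.0218; 4.06%). The same differences were called without control library 2 and TNF library 3 (1.44% and 4.03% of all genes). In the fit without control library 2 and TNF library 1, CDK6 fell by 0.46 in TNF with liproxstatin-1 against TNF with ferrostatin-1 (SE 0.10, adjusted p = 0.0319).

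In the test of any difference among the 6 groups, which called 26.1% of all genes, 6 of the 10 genes passed: CCNE1 (adjusted p = 0.0052), CDKN2B (adjusted p = 0.00821), CCND3 (adjusted p = 0.0158), CCNE2 (adjusted p = 0.037), CDK4 (adjusted p = 0.0378) and CDKN1B (adjusted p = 0.0412). CDKN1A stood at an adjusted p of 0.0586, CDK6 at 0.145, CCND1 at 0.308 and CCND2 at 0.324. For the 6 genes, those with the most similar log2 level over the 14 libraries were sought among 11404 genes, as a description in which all points share their libraries. For CCNE2 these were RRM1 (Pearson's r 0.98), CENPU (0.974) and HELLS (0.972). For CCNE1 they were HSD3B7 (0.967), RFC2 (0.963) and COMMD4 (0.962). For CDKN2B they were MOCOS (0.983), ARIH2 (0.978) and PDLIM7 (0.978). The nearest gene was FAM53B for CCND3 (0.96), NF2 for CDK4 (0.961) and PRUNE1 for CDKN1B (0.931).

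The genes around these 10 in the pathway were counted from lists. Of 24 E2F targets needed for entry into S phase, 20 rose and 0 fell with TNF over the 3 backgrounds, where 17.6% of all genes were higher and 16.2% lower (median log2 change 0.59, against 0.005 over all genes). GINS1, a subunit of the replicative helicase, rose by 1.03 ± 0.08 on the log2 scale, thymidylate synthase TYMS by 0.99 ± 0.13, the polymerase clamp PCNA by 0.89 ± 0.08 and the licensing factor CDT1 by 0.87 ± 0.07. Within ferrostatin-1, 21 of 24 rose (median 1.06), where 8.76% of all genes were higher. Within liproxstatin-1, 15 rose (median 0.78; 7.57% of all genes), and against control 4 rose (8.24%) and 1 fell (6.44%), with a median of 0.00. In ferrostatin-1 against control, 13 of 24 fell (0.379% of all genes) and 0 rose (median -0.68), among them GINS2 at -1.09 ± 0.17 and the ribonucleotide reductase subunit RRM2 at -0.92 ± 0.10. In liproxstatin-1 against control 1 fell (0.00451% of all genes; median -0.42). In ferrostatin-1 against control 10 fell without control library 2, and 21 fell both without control library 2 and TNF library 1 (1.72% of all genes) and without control library 2 and TNF library 3 (1.85%). Over the 3 backgrounds 23 rose in the first of these paired fits, while 22 rose and 2 fell in the second.

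The summed level of the 24 E2F targets was 3641 and 3689 CPM in TNF with liproxstatin-1, 3636 to 3819 CPM in TNF with ferrostatin-1, and 3072 and 3358 CPM in TNF alone. Without TNF it was 2165 and 2258 CPM in liproxstatin-1, 1923 and 1908 CPM in ferrostatin-1, and 2891, 3360 and 2629 CPM in control libraries 1, 2 and 3. Control library 2, which had the lowest CDKN2B and CDKN1A levels of the series, thus had the highest sum of the libraries without TNF. Without it, CDKN2B was -1.40 ± 0.08 over the 3 backgrounds (adjusted p = 5.96e-07).

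**Figure D4:**
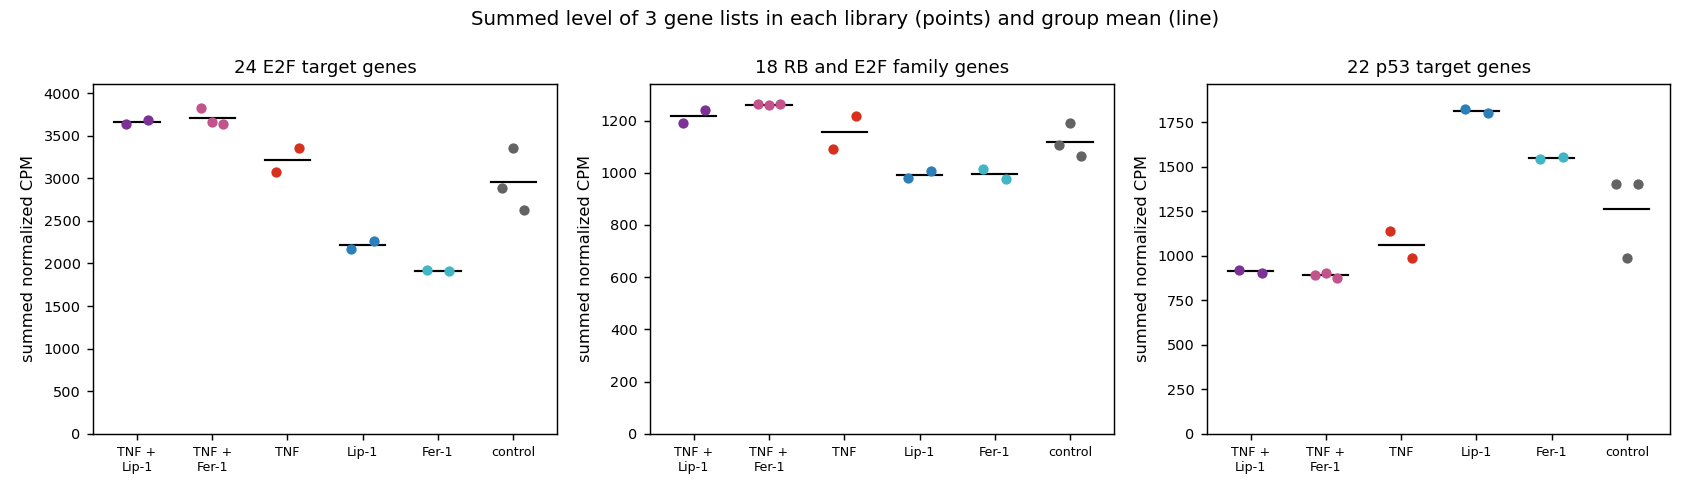
Summed normalized CPM (vertical axes, linear from 0) of 24 E2F targets, 18 RB and E2F family genes and 22 p53 targets in each library (points) by group, with the group mean as a line; Lip-1 is liproxstatin-1 and Fer-1 ferrostatin-1. The E2F targets lie at 3072 CPM or above with TNF and at 2258 CPM or below with either compound alone.

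Of 18 genes of the RB and E2F family, 9 rose and 1 fell over the 3 backgrounds (median 0.27, and 0.12 without TNF library 3), beside the same shares of all genes, 17.6% and 16.2%. The activator E2F2 rose by 1.27 ± 0.15, the atypical factor E2F8 by 0.76 ± 0.12, the activator E2F1 by 0.68 ± 0.07 and LIN52, a subunit of the DREAM complex, by 0.49 ± 0.10. In TNF against control these changes were 0.41, -0.17, 0.22 and 0.42, in the same order, and none was called. Within ferrostatin-1 they were 1.86, 1.22, 1.07 and 0.56, and all were called. RB1 itself had a change of -0.17 ± 0.13 over the 3 backgrounds (adjusted p = 0.365). Of 16 other CDK inhibitors and partners of G1 cyclins and CDKs, 8 rose and 3 fell over the 3 backgrounds (median 0.23). The shares of all genes were again 17.6% and 16.2%. CDKN2C, the p18 inhibitor of the same family as CDKN2B, rose by 0.81 ± 0.18, cyclin A2 (CCNA2) by 0.71 ± 0.12, SKP2, which marks p27 for degradation, by 0.68 ± 0.11, and the phosphatase CDC25A by 0.57 ± 0.08. Against control these changes were 0.57, 0.13, 0.01 and 0.21, in the same order, and none was called. CDK2 (0.42) and CKS2 (0.61) were called higher there, as were 8.24% of all genes. Within ferrostatin-1 CCNA2 (1.02), SKP2 (1.07) and CDC25A (0.77) were called and CDKN2C (0.89) was not. There 8.76% of all genes were higher.

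Of 22 p53 targets other than CDKN1A, 6 rose and 7 fell over the 3 backgrounds (median -0.08). Of all genes, 17.6% were higher and 16.2% lower. Without control library 2 and TNF library 1, 9 rose and 8 fell (median 0.03), and without control library 2 and TNF library 3, 8 rose and 11 fell (median -0.22). The cytokine GDF15 fell by 1.83 and the stress sensor SESN2 by 1.74 on the log2 scale, whereas the damage sensor DDB2 rose by 1.34 ± 0.13 and PHLDA3, an inhibitor of AKT, by 1.29 ± 0.09. Their summed level was 901 to 922 CPM in TNF with liproxstatin-1, 875 to 903 CPM in TNF with ferrostatin-1 and 986 to 1139 CPM in TNF alone, against 1799 to 1826 CPM in liproxstatin-1, 1542 to 1556 CPM in ferrostatin-1 and 987 to 1403 CPM in control. Liproxstatin-1 alone thus had both the highest sum of p53 targets and the highest CDKN1A level of the 6 groups. A large part of this sum was GDF15, with 126 to 349 CPM in libraries with TNF and 273 to 937 CPM in those without. The sum therefore does not stand for the list as a whole, and a link to CDKN1A was not tested.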

How the data were processed

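HT-29 poly(A) RNA was sequenced from both fragment ends after a dUTP protocol that keeps strand, per the labels' protocols. For each of 36555 genes the authors deposited raw counts and FPKM values in 14 libraries. StringTie 1.3.4d, HISAT2 2.0.4, DESeq2, edgeR and cutadapt 1.9 are named, without roles, in the submitters' processing notes; the sources used here do not state a genome build, an annotation or how strand was counted. Library numbers are those of the count columns. In 3 groups (TNF alone and either compound alone) the columns carry the numbers 1 and 3 and were matched to the labels by group, and the 6 FPKM columns of these groups were not used.

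Counts were scaled by TMM and filtered with filterByExpr (minimum count 10) in edgeR 4.0.16 under R 4.3.3, leaving 22179 genes. Each of 12 comparisons and the test among 6 groups used edgeR's quasi-likelihood test in 1 fit of 6 groups with p-values adjusted by Benjamini-Hochberg and calls below 0.05. SE is the size of the log2 change divided by the square root of F, and intervals are 95% t intervals. The fit was tested on simulated data. FPKM served only to compare levels between genes. Libraries held 59913850 to 75838597 counts, and every pair of libraries in a group differed by more than sampling noise, with a chi-square per degree of freedom of 14.9 or more.

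The 10 genes and the lists were chosen with earlier results of these data known, and all 10 genes are named. Of each list the text names up to 4 genes with the largest change among those called, and for genes called among the 6 groups the 3 genes closest in Pearson's r (mean of at least 5 CPM); other list genes named were chosen after their values were seen. Alternatives were DESeq2 1.42.0, limma 3.58.1 voom with quality weights, relative log expression scaling, no filter, a filter of 1 CPM in 3 libraries, the compared groups alone, a replicate block, each library left out and, added after seeing the data, control library 2 left out with either TNF library.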

Additional observations from a re-analysis of the deposited data

How the results depend on the processing

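CCND3, CCNE1 and CDKN2B remained called over the 3 backgrounds in all 22 alternatives run, among them each library left out in turn and the fit with a replicate block. Of the 3 calls in TNF with ferrostatin-1 against TNF, CDK4 remained in 8 of 23 alternatives and CCND3 and CDKN1B in 7 each. Within ferrostatin-1, CCNE1 remained in 23 of 23, CDKN2B in 21 and CCNE2 in 18; CDKN2B within liproxstatin-1 remained in 21 and CCND3 against control in 18.

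The counts that follow are of the 10 genes called, each with the share of all genes called in the same fit. DESeq2 called 6 in TNF with ferrostatin-1 against TNF (27.3%), 2 in TNF with liproxstatin-1 against TNF (18.1%), 2 in TNF against control (27.4%), 2 within liproxstatin-1 (20.6%), 2 in ferrostatin-1 (4.81%) and 1 in liproxstatin-1 (2.45%) against control, and 1 (9.23%) and 2 (9.31%) in the interactions with ferrostatin-1 and liproxstatin-1. Limma voom called 0 in TNF with ferrostatin-1 against TNF (0.0631%), 0 in TNF against control (6.83%), 6 within ferrostatin-1 (32.6%), 8 within liproxstatin-1 (30.9%), and 2 in ferrostatin-1 (7.23%) and 3 in liproxstatin-1 (6.6%) against control. The compared groups alone gave 0 in TNF with ferrostatin-1 against TNF (0.0542%), 0 in TNF against control (1.95%), 6 within ferrostatin-1 (34.3%), 7 within liproxstatin-1 (30.5%) and 1 in liproxstatin-1 against ferrostatin-1 (0.485%). With no filter, TNF with ferrostatin-1 against TNF had 1 (1.51%), and with the filter of 1 CPM there were 2 within liproxstatin-1 (23.9%). Each count above that of edgeR came in a fit that also called a larger share of its genes.

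With 1 library left out at a time, the counts changed in TNF against control, within either compound and over the 3 backgrounds. They also changed in ferrostatin-1 against control, in TNF with either compound against TNF, in both interactions and among the 6 groups. Ranges over these fits are not listed, because the share of all genes called differed between fits. Without control library 2, every group kept at least 2 libraries. That fit called 2 genes in TNF against control (15.5%) and 4 over the 3 backgrounds (35.3%). A group left with 1 library was assumed to vary like the others.

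Without control library 2 and TNF library 1, added after seeing the data, the counts were 2 in TNF against control (16.1%), 6 within ferrostatin-1 (30.2%), 7 within liproxstatin-1 (27.6%), 8 over the 3 backgrounds (40.1%), 2 in ferrostatin-1 (2.96%) and 1 in liproxstatin-1 (1.18%) against control, 0 in TNF with ferrostatin-1 against TNF (5.08%), 1 and 2 between the compounds without and with TNF (1.46% and 4.06%), 1 and 2 in the interactions (2.29% and 2.68%) and 8 among the 6 groups (35.8%). Without control library 2 and TNF library 3, added likewise, they were 8 in TNF against control (33.6%), 6 within ferrostatin-1 (30.4%), 7 within liproxstatin-1 (27.6%), 5 over the 3 backgrounds (43.9%), 2 in ferrostatin-1 (3.0%) and 1 in liproxstatin-1 (1.12%) against control, 7 in TNF with ferrostatin-1 (34.9%) and 8 in TNF with liproxstatin-1 (32.8%) against TNF, 1 and 2 between the compounds (1.44% and 4.03%), 7 and 8 in the interactions (27.3% and 27.8%) and 9 among the 6 groups (47.6%).

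With the replicate block, 0 genes were called in TNF with ferrostatin-1 against TNF (1.33%) and 3 among the 6 groups (18.2%). Libraries of equal number did not deviate together (correlation of -0.096 to 0.128 over 28 pairs, against -0.128 to 0.128 over 53 pairs of unequal number), so the numbers do not pair them.

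Of 120 log2 changes (10 genes in 12 comparisons), 22 turned sign when libraries were left out, and 15 of these were called in no fit. The other 7 were of CDK4, CDK6, CDKN1A and CCND1. For TNF against control, CDK4 was 0.20 over all libraries, -0.13 without TNF library 1, 0.48 without TNF library 3 and -0.20 without control library 2 and TNF library 1. CDK6 was -0.37 there, with 0.21, -1.35 and 0.26 in these fits, and CDKN1A was 0.53, with 0.12, 0.85 and -0.21. Over the 3 backgrounds CDK6 was 0.25, -0.08 without TNF library 3, 0.47 without control library 2 and TNF library 1 and -0.06 without control library 2 and TNF library 3. In TNF with liproxstatin-1 against TNF, CDK6 was 0.49, and -0.09, 1.47 and -0.07 without TNF library 1, without TNF library 3 and without control library 2 and TNF library 1. In the same order CDKN1A was -0.36 there, and 0.06, -0.68 and 0.08. CCND1 in TNF with ferrostatin-1 against TNF was -0.11, and 0.01, -0.22 and 0.04. The cause was not tested.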

Other observations

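Genes upstream of the G1 machinery were counted from 3 further lists, over the 3 backgrounds. Of 14 Wnt target genes, 5 rose and 2 fell with TNF, where 17.6% of all genes rose and 16.2% fell (median log2 change 0.08, against 0.005 over all genes). NKD1 and AXIN2, which restrain Wnt signalling, rose by 0.97 ± 0.07 and 0.58 ± 0.05, while the adhesion receptor CD44 fell by 0.83 and the ephrin receptor EPHB3 by 0.66. For CD44 the groups did not overlap, with 224 to 281 CPM in libraries with TNF against 416 to 526 CPM in those without. The same held in this list for NKD1, AXIN2, EPHB2, EPHB3 and TCF7. The share of all genes without overlap was not counted.

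Of 15 genes of the TGF-beta pathway and its targets, 2 rose and 7 fell (median -0.13), where 17.6% of all genes rose and 16.2% fell. The list includes regulators of CDKN2B, and a link to its level was not tested. The ligand TGFB2 fell by 1.33, ID1 by 0.94 and the repressor SKIL by 0.80, whereas the signal transducer SMAD3 rose by 0.74 ± 0.08. SMAD3 had 382 to 518 CPM in libraries with TNF against 206 to 309.96 CPM in those without, again with no overlap. SKIL and TGFBR2 of this list did not overlap either, and the share of all genes was not counted.

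Of 10 genes of the MYC network, 2 rose and 3 fell (median -0.02), beside the same shares of all genes. MXD1, a partner of MAX that opposes MYC, fell by 1.15, MLX fell by 0.61 and MYC itself fell by 0.29, while MXD3 rose by 0.80 ± 0.16 and MXD4 by 0.44 ± 0.10. No gene of these 3 lists was called in ferrostatin-1 or in liproxstatin-1 against control, by edgeR's quasi-likelihood test. Only 0.564% and 0.0586% of all genes were called there, so this does not show that the lists were unchanged. Among the 9 epithelial markers CDH1 fell with TNF by 0.85 and VIL1 by 0.61. In TNF against control the other markers ran from -0.20 (CDX2) to 0.22 (KRT18), and none of them was called. There 6.44% of all genes were lower. Within ferrostatin-1 KRT20 was also called lower (-0.52). The summed level of the epithelial list was 9231 to 13827 CPM with TNF against 9963 to 12070.0 CPM without. Most of this sum was KRT8 (4788 to 7362 CPM) and KRT18 (2658 to 4277 CPM).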
